A study of Homo sapiens with 2 samples.

Results

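DPP4, which encodes the cell surface peptidase CD26, was measured with 9 related genes in mesothelioma cells in which CD26 had been lowered or raised. The genes were DPP4 and its relatives FAP, DPP8, DPP9, DPP10 and PREP, the lysosomal and cytosolic dipeptidyl peptidases DPP7 and DPP3, and 2 other cell surface peptidases, ANPEP and MME. They were chosen by gene symbol, current or older, and all 10 of the 10 genes were named on the array, by 13 of its 24267 probes, among 12445 named genes in all. No probe carried an older symbol that could have meant one of them. A value was present for 10 of the genes in the depletion experiment and for 9 in the transfection experiment, where the DPP10 probe had none.

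Total RNA was compared on 2 two-colour arrays, with 1 array per experiment and no replicate. In the first, ACC-MESO1 cells depleted of CD26 were set against control ACC-MESO1 cells. In the second, MSTO-211H cells carrying CD26 on the plasmid pLNCX2, in which a viral promoter drives the insert, were set against control MSTO-211H cells. Both are established human mesothelioma cell lines, grown in RPMI medium with fetal calf serum. The depleting agent is called an shRNA in one label and an siRNA in another. How the control cells were treated is not stated in the labels, nor whether the transfected cells were a clone or a pool. The question was which genes change with CD26. Control cells were in Cy5 and manipulated cells in Cy3 on both arrays, and no array had the dyes swapped, so an effect of the dye and an effect of the manipulation cannot be told apart. Every value below is the authors' normalised log2 ratio of manipulated over control cells. It says how the RNA level differed between a pair of samples and not how high the level was. The number of arrays limits the precision: no p-value or replicate error can be given. The spread between different probes of one gene, with a pooled SD of 0.42 after depletion (566 genes) and 0.45 after transfection (471 genes), is the yardstick used here, and it covers probes on one array only. A gene counts as past 2-fold where its log2 ratio reaches 1 or -1.

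Dipeptidyl peptidases remove a pair of residues from the amino end of a peptide, and DPP4 does so after proline or alanine. In this way it shortens chemokines, incretin hormones and neuropeptides outside the cell. FAP, fibroblast activation protein, is its closest relative, can also cut within a chain, and is known as a marker of activated fibroblasts. DPP8 and DPP9 are cytosolic enzymes of the same fold, DPP10 has lost the catalytic serine and associates with potassium channels, and PREP is the cytosolic prolyl endopeptidase. DPP7 cuts similar substrates in vesicles, and DPP3 is a cytosolic zinc enzyme. ANPEP (CD13, aminopeptidase N) and MME (CD10, neprilysin) are zinc peptidases of the cell surface. CD26 and CD10 have both been studied as surface markers in mesothelioma.

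DPP4 was the member that differed most on both arrays. Its log2 ratio was -3.92 in depleted ACC-MESO1 cells, where its signal was 6.63% of that in control cells, a 15.1-fold lower level. In transfected MSTO-211H cells its log2 ratio was 5.51, a 45.7-fold higher level. Both directions were those of the labels. These sizes were 9.36 and 12.2 times the pooled SD between probes. The difference between the arrays, transfection minus depletion, was 9.43 and ranked 1st from the top among the 8956 genes measured on both. The same single probe gave both values. The sources used here do not place this probe in the transcript, so it is not known whether it lies within the transfected sequence.

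The RefSeq start of DPP4 lies on the minus strand of chromosome 2. The 250 bases before it are shown because they are the cells' own promoter, which the pLNCX2 construct does not use. They were at chr2:162074216-162074465 in GRCh38.p14 (RefSeq), with 73.6% G and C against a median of 58% over 35116 RefSeq promoter windows of the same length. Capitals in this and the next promoters mark the GC box core GGGCGG or its reverse complement CCGCCC.
DPP4 promoter: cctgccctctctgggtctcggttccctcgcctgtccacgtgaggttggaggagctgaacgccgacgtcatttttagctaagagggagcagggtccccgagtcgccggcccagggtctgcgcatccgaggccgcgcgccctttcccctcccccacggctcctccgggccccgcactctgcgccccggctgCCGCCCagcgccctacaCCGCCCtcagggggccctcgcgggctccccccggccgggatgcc
It held the GC box core 2 times, at positions 190 and 207 of the window. At least 1 such match on either strand was found in 42.6% of all windows. No match was found to the TATA box letters TATAAA, the CCAAT box letters CCAAT or the AP-1 letters TGACTCA on either strand, which 10.7%, 32.0% and 4.20% of all windows hold. None of these motifs contains another. A match describes the letters of the window and is no evidence that a factor binds there.

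FAP was the only other member past 2-fold after CD26 transfection. Its log2 ratio was -1.76 in transfected MSTO-211H cells, which is 29.6% of the control level and 3.38-fold lower. In depleted ACC-MESO1 cells it was 0.71, or 1.64-fold higher, which was short of 2-fold and 1.71 times the pooled SD. FAP therefore lay on the opposite side of 0 from DPP4 on each array. On the transfection array it ranked 11th from the bottom of 9359 genes, and on the depletion array it was at the 93.2nd percentile of 10347. The difference between the arrays was -2.47, 13th from the bottom of 8956. With FAP itself counted, 2 genes were at least as high as FAP after depletion and also at least as low after transfection. The other was C19orf33 (log2 ratios 1.09 and -2.50), a gene named here after its values were seen. The cut was FAP's own values, so the count depends on its transfection rank and carries no test. One probe gave both FAP values. The fibroblast markers listed with it had a value for 8 of 12 genes after transfection, from -0.77 to 0.75 with a median of -0.46 and 0 past 2-fold. After depletion 9 of 12 had a value, from -0.89 to 1.96 with a median of -0.07, and MFAP5 (1.96) was past 2-fold. MFAP5 had no value after transfection, and of the genes measured after depletion alone 13.2% were past 2-fold. The shares of all genes past 2-fold were 4.86% after depletion and 5.46% after transfection. The part of the fibroblast markers in the FAP values was not tested.

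**Figure D1:**
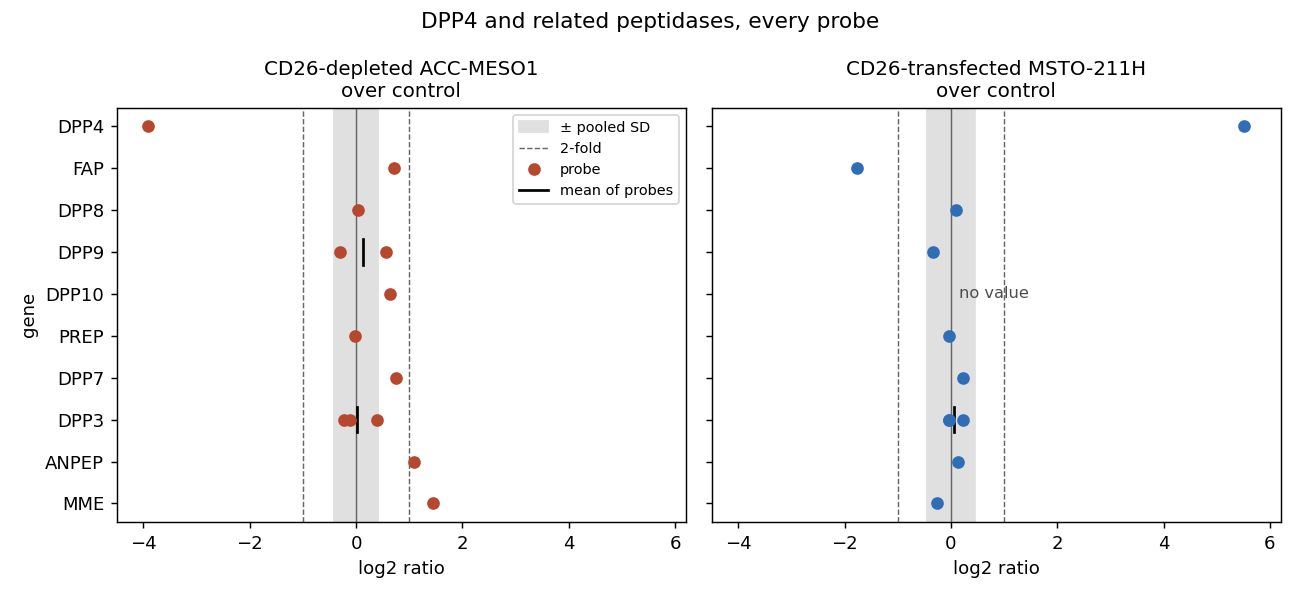
Log2 ratios of manipulated over control cells for every probe of the 10 genes, on the depletion array (left) and the transfection array (right). Points are probes, black bars the mean of a gene with several probes, dashed lines 2-fold and grey bands the pooled probe SD (0.42 and 0.45); DPP4 is at -3.92 and 5.51, and MME, ANPEP and FAP are the others with a point beyond a dashed line.

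The 2 surface zinc peptidases among the members were past 2-fold in depleted ACC-MESO1 cells and short of it in transfected MSTO-211H cells. After depletion MME had a log2 ratio of 1.44, 2.72-fold higher, ranking 140th from the top of 10347 genes. In transfected MSTO-211H cells it was -0.25, which is within the pooled SD. ANPEP had a log2 ratio of 1.09 after depletion, 2.13-fold higher and 275th from the top. After transfection it was at 0.14, also within the pooled SD. In size these depletion values were 3.45 and 2.61 times the pooled SD. The differences between the arrays were -1.70 for MME, 72nd from the bottom of 8956, and -0.95 for ANPEP, at the 5.01st percentile. The 2 genes differed from each other on the depletion array by 0.35, less than the SD of a difference between probes (0.59), so their order there is not resolved. Each gene rested on 1 probe. The experiments used different cell lines, so a difference between the arrays cannot be told apart from a difference between the lines.

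The promoters of ANPEP and MME are shown because these genes were past 2-fold together after depletion. RefSeq gives ANPEP 2 starts on the minus strand of chromosome 15, and their windows are chr15:89814853-89815102 and chr15:89806629-89806878. MME has 4 starts in the table, on the plus strand of chromosome 3, and the window of the most upstream one is chr3:155079422-155079671 (all GRCh38.p14, RefSeq).
ANPEP upstream promoter: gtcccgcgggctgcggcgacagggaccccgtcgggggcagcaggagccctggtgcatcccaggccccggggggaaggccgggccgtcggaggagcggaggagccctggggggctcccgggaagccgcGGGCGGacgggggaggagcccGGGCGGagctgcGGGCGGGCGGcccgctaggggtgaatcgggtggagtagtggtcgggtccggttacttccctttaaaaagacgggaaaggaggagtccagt
ANPEP downstream promoter: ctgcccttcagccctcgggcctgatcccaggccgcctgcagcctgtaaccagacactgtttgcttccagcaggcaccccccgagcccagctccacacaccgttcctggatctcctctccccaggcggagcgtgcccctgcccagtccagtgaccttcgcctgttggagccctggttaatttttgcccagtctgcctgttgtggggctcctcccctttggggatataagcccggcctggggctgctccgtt
MME promoter: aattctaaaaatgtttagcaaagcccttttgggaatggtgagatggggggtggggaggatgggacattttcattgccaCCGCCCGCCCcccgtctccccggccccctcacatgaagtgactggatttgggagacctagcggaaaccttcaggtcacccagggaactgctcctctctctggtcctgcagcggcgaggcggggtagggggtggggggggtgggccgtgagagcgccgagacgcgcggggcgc
The upstream ANPEP window held the GC box core 4 times, at positions 128, 149, 161 and 165, of which the last pair overlaps. The downstream one held none. The MME window held it 2 times, overlapping, at positions 79 and 83. The share of G and C was 74% and 64.4% in the ANPEP windows and 63.2% in the MME window. No match to the TATA box, CCAAT box or AP-1 letters was found in these 3 windows. Of the 4 MME windows, 3 held the GC box core and 1, not shown, held a CCAAT match. Those 3 overlap in turn on the chromosome, so a site can count in more than 1 window. Over all windows, 42.6% held the GC box core and 32.0% a CCAAT match. Of the 10 genes, 8 had at least 1 window in the table, and FAP and PREP had none.

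The cytosolic relatives of DPP4 stayed near 0 on both arrays. DPP8 had log2 ratios of 0.04 after depletion and 0.10 after transfection. PREP had -0.03 and -0.04. DPP9, a second cytosolic enzyme with the cleavage rule of DPP4, had 2 probes at -0.29 and 0.56 after depletion, with a mean of 0.14 and an SD between probes of 0.61. These probes stood on opposite sides of 0. After transfection 1 of the DPP9 probes had a value, -0.34. This was the probe at -0.29 after depletion, so the 2 readings of that probe lay close together. DPP3, the zinc dipeptidyl peptidase, was the member with the most probes. Its 3 probes were at -0.11, -0.24 and 0.39 after depletion, with a mean of 0.02 ± 0.33 (SD over 3 probes). After transfection they were at 0.24, -0.03 and -0.03, with a mean of 0.06 ± 0.15 (SD over 3 probes). The means of these 4 genes lay within the pooled SD on both arrays. So did 71.0% of all genes after depletion and 73.5% after transfection, so this does not set the 4 apart.

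DPP7 and DPP10 were above 0 after depletion by more than the pooled SD and short of 2-fold. DPP7, which removes dipeptides in intracellular vesicles, had a log2 ratio of 0.75 after depletion, 1.68-fold higher, and 0.22 after transfection. DPP10, the form with no catalytic activity, had 0.64 after depletion, 1.56-fold higher. DPP10 belonged to the 1391 genes measured after depletion alone, of which 13.2% were past 2-fold there. The share was 3.56% for the 8956 that both arrays measured. The sources used here do not give the rule by which a probe was left without a value.

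In all, 3 of 10 members were past 2-fold after depletion (MME and ANPEP higher, DPP4 lower), beside 4.86% of all genes on that array, 3.31% higher and 1.56% lower. After transfection 2 of 9 were (DPP4 higher, FAP lower), beside 5.46%, 4.09% higher and 1.37% lower. DPP4 is the gene that was manipulated. Without it the counts were 2 of 9 and 1 of 8. With each array centred on ribosomal protein genes, which moved depletion values up by 0.35 and transfection values by 0.25, FAP (1.07) and DPP7 (1.10) were also past 2-fold after depletion, making 5 of 10. The share of all genes past 2-fold was then 8.65% on that array. At a threshold of 0.5, 6 of 10 members were past it after depletion, beside 22.6% of all genes, and 2 of 9 after transfection, beside 22.5%. At 1.5 these were 1 of 10 beside 1.42% and 2 of 9 beside 1.74%. The members nearest to the 2-fold threshold were ANPEP (1.09) inside it and DPP7 (0.75) outside it on the depletion array. The median of the other 9 members was 0.64 after depletion, beside 0.01 over all genes (0.996 beside 0.37 with the ribosomal centring), and 8 of the 9 were above 0, beside 51.3% of all genes. After transfection the median of the other 8 was 0.01, beside 0.01 over all genes. Above 0 were 4 of the 8, beside 50.7% of all genes. These members were chosen with earlier results of these data known, so the counts describe them and carry no test.

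In the order of values on the depletion array, MME, ANPEP, DPP7, FAP and DPP10 followed each other by steps of at most 0.35. DPP9 followed DPP10 by a step of 0.51, and DPP8, DPP3 and PREP came next by steps of at most 0.09. For a step between single-probe genes the matching spread is the SD of a difference, 0.59 on this array, and each of these steps was below it. DPP4 followed 3.89 below PREP, beyond that spread. On the transfection array, where the SD of a difference was 0.64, DPP4 stood 5.29 above DPP7, the next member. From DPP7 down to DPP9 no step exceeded 0.21, and FAP followed 1.42 below DPP9. Only DPP4 on both arrays and FAP after transfection stood apart from their neighbours in the order by more than the SD of a difference. The step of 0.51 from DPP10 to DPP9, a mean of 2 probes after depletion, was beyond the pooled SD of 0.42.

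**Figure D2:**
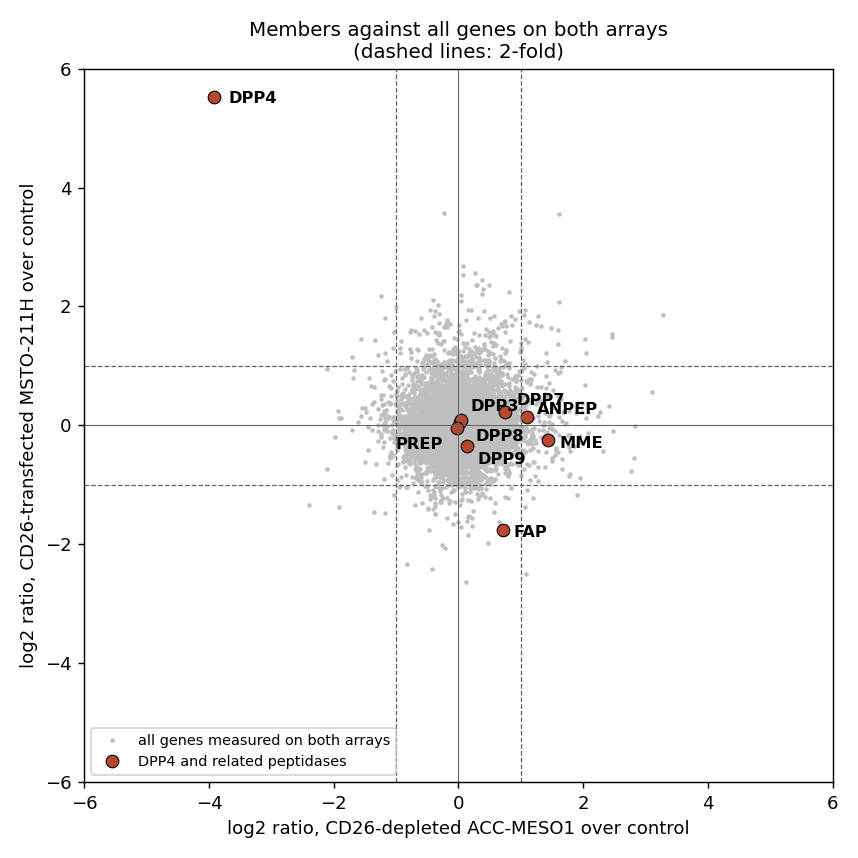
Log2 ratios on the depletion array (horizontal) against the transfection array (vertical) for the 8956 genes measured on both (grey) and the 9 members among them (red); dashed lines are 2-fold. DPP4 lies apart at the upper left (-3.92 and 5.51), FAP at the lower right (0.71 and -1.76), and MME and ANPEP to the right (1.44 and 1.09 on the horizontal axis).

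Of the 9 members measured on both arrays, DPP4 was the one below 0 after depletion and above 0 after transfection. FAP, MME and DPP9 were on the opposite sides, above 0 after depletion and below it after transfection, as were 24.0% of the 8956 genes. For DPP9 this rests on which probes had a value: its 1 probe measured on both arrays was below 0 on both (-0.29 and -0.34), and the probe at 0.56 after depletion had no value after transfection. The other 5 had the same sign on both arrays. Opposite signs were thus found for 4 of the 9 members, beside 46.9% of the 8956 genes. For DPP9 and MME the transfection values were within the pooled SD, and when each gene took the median of its probes DPP3 changed sign, to -0.11 and -0.03. PREP was above 0 on both arrays when they were centred on ribosomal protein genes (0.33 and 0.21).

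By distance between the log2 ratios on the 2 arrays, over 8956 genes, no gene lay close to DPP4. The nearest was the matrix protein gene POSTN at a distance of 4.17, with log2 ratios of -0.23 and 3.57. It was followed by the mitochondrial threonyl-tRNA synthetase gene TARS2 (distance 4.28), the secreted IGF-binding protein gene IGFBP7 (4.57), C3orf18 (4.61) and CABLES1 (4.69). FAP had closer neighbours. They were the actin nucleator gene COBL (distance 0.15, log2 ratios 0.65 and -1.62), the lipid droplet protein gene PLIN2 (0.33), CLN6 (0.33), the mesothelial surface protein gene MSLN (0.47, log2 ratios 0.59 and -1.31) and the glycophorin gene GYPC (0.50). Likeness over 2 arrays is a description of these values and no sign of shared control.

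DPP4 and FAP lie close together on chromosome 2, with the glucagon gene GCG between them. Of the 5 protein-coding genes on either side of DPP4, 7 of 10 had a value on each array, FAP included. GCG, the bicarbonate transporter gene SLC4A10 and the potassium channel gene KCNH7 had none. After depletion the 7 ranged from -0.24 (TBR1 and PSMD14) to 0.72 (the RNA sensor gene IFIH1) and 0 were past 2-fold. After transfection FAP was the one past 2-fold, and the others ranged from -0.06 (PSMD14) to 0.77 (GCA). IFIH1, which follows FAP, was at 0.48 after transfection, and TANK was at 0.43 and 0.46 on the 2 arrays. FAP was the one neighbour below 0 by more than the pooled SD on either array.

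**Figure D3:**
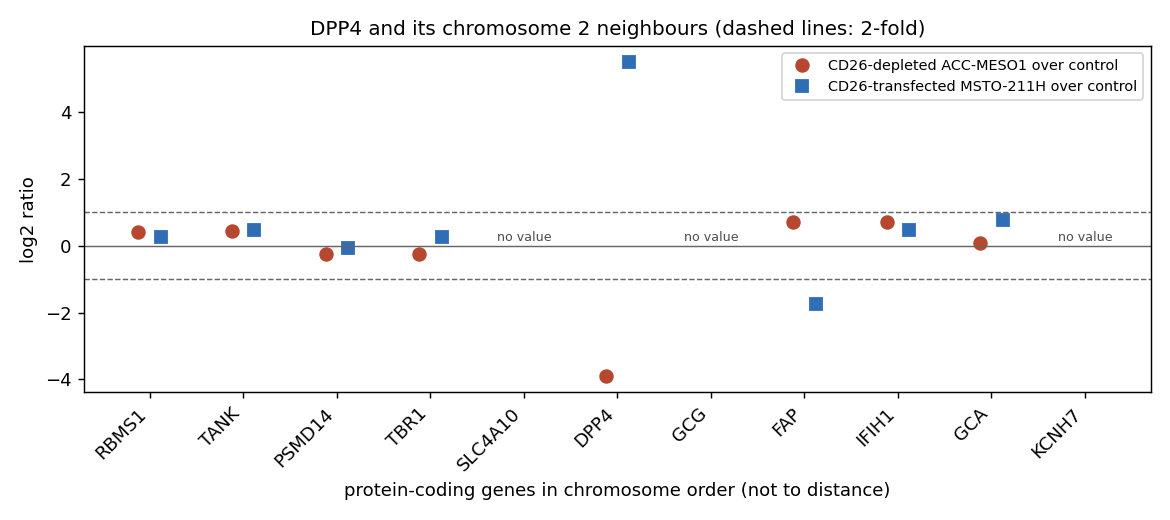
Log2 ratios on the depletion array (circles) and the transfection array (squares) of DPP4 and the 5 protein-coding genes on each side of it, in chromosome order and not to distance; dashed lines are 2-fold. DPP4 (-3.92 and 5.51) and FAP (-1.76 on the transfection array) are the points beyond the dashed lines.

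Related peptidases outside the 10 were taken from 5 lists with 57 genes together, and the array named 48. After depletion 2 of the 41 measured were past 2-fold, or 4.88%, and their median was -0.13. After transfection 1 of 38 was, or 2.63%, with a median of 0.09. The first share was near the 4.86% of all genes and the second below the 5.46%. After depletion the glutamate carboxypeptidase relative NAALAD2 was higher (1.67) and the membrane carboxypeptidase CPM lower (-1.02), neither with a value after transfection. Of the genes measured after depletion alone, 13.2% were past 2-fold there. After transfection the endothelin-converting enzyme ECE1, a relative of MME, was higher (2.56), with 0.26 after depletion. The neprilysin family and ACE otherwise ranged from -0.45 (ECEL1) upwards after depletion, with 0 of 6 past 2-fold.

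Other members of the aminopeptidase N family had 0 of 7 past 2-fold on each array, beside 4.86% and 5.46% of all genes. After depletion they ranged from LTA4H (-0.44), the leukotriene A4 hydrolase, to ERAP1 (0.94), which trims peptides for MHC class I. After transfection they ranged from the cytosolic aminopeptidase NPEPPS (-0.70) to LNPEP (0.46). Other prolyl and dipeptidyl peptidases had 0 of 5 and 0 of 6 past 2-fold, from APEH (-0.52) to XPNPEP1 (0.29) after depletion and from TPP2 (-0.58) to PRCP (0.45) after transfection. Carboxypeptidases and dipeptidases had a median of -0.21 after depletion over 13 genes and -0.13 after transfection over 11. Of the 13, 1 was past 2-fold higher (NAALAD2) and 1 lower (CPM), and of the 11, 0 were past it. Their extremes after transfection were DPEP3 (-0.94) and CNDP1 (0.25). Intracellular peptidases had 0 of 10 past 2-fold on each array, from the insulin-degrading enzyme IDE (-0.78) to DNPEP (0.23) after depletion and from PITRM1 (-0.63) to BLMH (0.84) after transfection. Where a family had a count of 0, so few genes do not set it apart beside the shares of all genes.

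**Figure D4:**
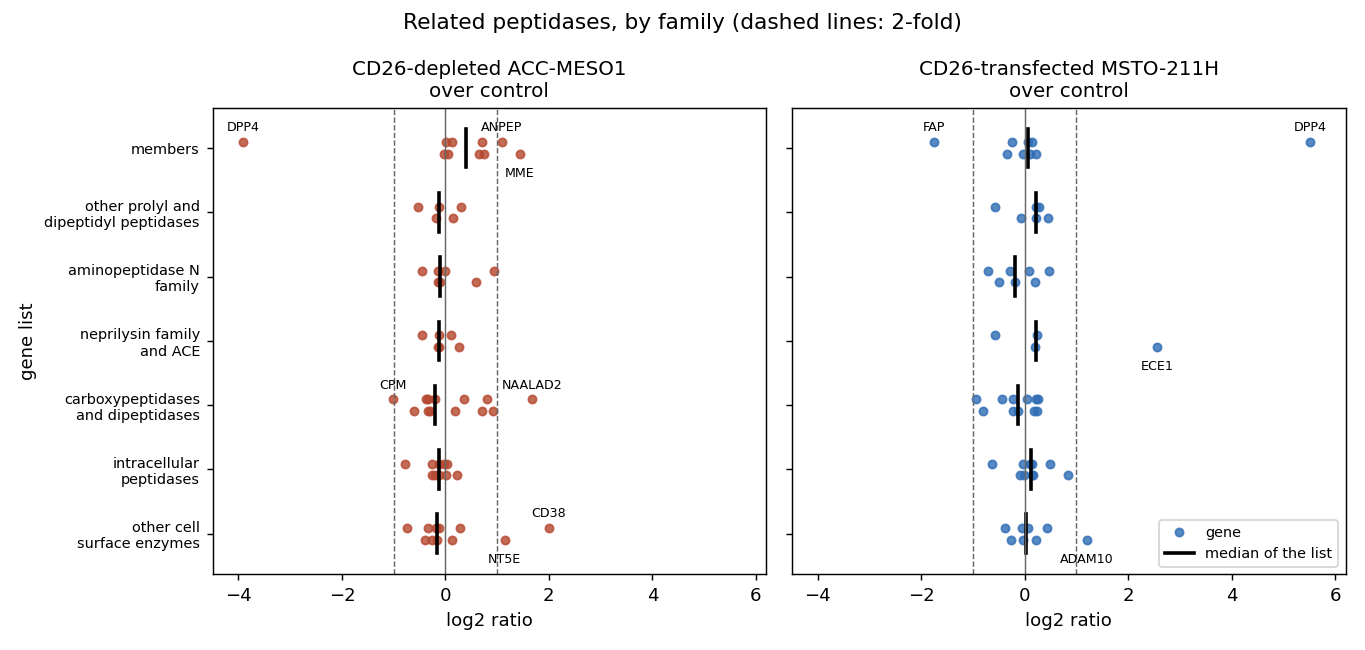
Log2 ratios of every measured gene of the 10 members and of 6 lists of related peptidases and cell surface enzymes, on the depletion array (left) and the transfection array (right). Points are genes, black bars list medians and dashed lines 2-fold, and genes past 2-fold are named; among the peptidase lists these are NAALAD2 (1.67), CPM (-1.02) and ECE1 (2.56).

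The list of chemokines, hormones and cytokines reported as substrates of DPP4 was measured at the level of their own RNA. After depletion 3 of 19 were past 2-fold, all higher: the chemokine genes CCL5 (3.27), CXCL9 (1.61) and CXCL2 (1.33). On that array 3.31% of all genes were higher by this rule, and CXCL9 and CXCL2 were among the genes measured after depletion alone, of which 13.2% were past 2-fold. After transfection 3 of 17 were, again all higher: CCL5 (1.85), the incretin gene GIP (1.28) and the tachykinin gene TAC1 (1.12), beside 4.09% of all genes. CCL5 was past 2-fold and higher on both arrays. CXCL9 and CXCL2 had no value after transfection. The medians were 0.05 and -0.16. The other genes of the list included CSF3 (-0.61), the lowest after depletion, and CCL22 (-0.98), the lowest after transfection. CXCL12, CXCL10 and GCG had no value on either array.

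Among the 14 listed binding partners of DPP4, 2 of 10 measured were past 2-fold after depletion and 0 of 7 after transfection, beside 4.86% and 5.46% of all genes. Those 2 were the fibronectin receptor subunit ITGA5 (1.29) and plasminogen, PLG (1.31), which had no value after transfection. PLG was among the genes measured after depletion alone, of which 13.2% were past 2-fold. Of the 10, 9 were above 0 after depletion, beside 51.3% of all genes. Fibronectin, FN1, was the lowest there (-0.80, the mean of probes at -0.85 and -0.75). Adenosine deaminase, ADA, which binds DPP4 at the cell surface, was at 0.20 and 0.28. Caveolin, CAV1, was at 0.23 after depletion and was the lowest of the list after transfection (-0.82). The leukocyte phosphatase PTPRC had no value on either array.

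The listed receptors of peptides, with those of adenosine, had 1 of 15 past 2-fold after depletion, the neuropeptide Y receptor NPY1R (1.84). After transfection 1 of 9 was, NPY5R (1.05). The shares of all genes were 4.86% and 5.46%. NPY1R had no value after transfection, and of the genes measured after depletion alone 13.2% were past 2-fold. The lowest were CXCR3 (-0.37) after depletion and NPY2R (-0.90) after transfection. Of the substrates and partners of FAP, the urokinase receptor PLAUR (1.69) was past 2-fold after depletion among 5 measured. The collagen gene COL3A1 (1.78) was past it after transfection among 6, beside the same shares of all genes. COL3A1 thus stood above 0 on the array where FAP stood below it, and after depletion it was at -0.18. The plasmin inhibitor SERPINF2, which FAP cleaves, was at 0.48 and -0.12.

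The labelled cell type could be checked only as far as ratios allow. Of 15 mesothelial markers, 14 had a value after depletion and 13 after transfection. Of 10 lymphocyte markers, 3 and 4 had one, and of 8 endothelial markers, 6 and 5. The mesothelial markers had a median of 0.03 after depletion, with 8 of 14 above 0, and 0.10 after transfection, with 8 of 13 above 0. The shares of all genes above 0 were 51.3% and 50.7%. Among the mesothelial markers ITLN1 (1.38) was past 2-fold after depletion. MSLN (-1.31) and KRT18 (-1.16) were past it after transfection, where UPK3B (0.66) was the highest. The T cell receptor subunit gene CD3E (1.88) was the lymphocyte marker past 2-fold after transfection, and had no value after depletion. It belonged to the 403 genes measured after transfection alone, of which 31.8% were past 2-fold there. Of all genes, 4.86% were past 2-fold after depletion and 5.46% after transfection. No endothelial marker was past 2-fold on either array. A ratio does not show whether a marker is absent.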

How the data were processed

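The deposited table holds normalized log2 ratios of manipulated over control cells, 1 column for each of 2 arrays, with the direction given per the labels. The authors had centred each array, as the median over probes was 0. The sources used here do not give the background correction, the normalization, the scanner or the rule for missing values, and channel intensities were not used here.

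Of the probes, 13395 had a gene symbol and 10872 none. Symbols came from the platform annotation and were updated through RefSeq (GRCh38.p14): 10076 were current, 2285 were replaced by the gene of which they are a synonym, and 113 that could mean several genes were left as they were. Probes of a gene were averaged, which gave 10347 genes after depletion and 9359 after transfection. With 1 array per group there was no test. Genes were called at an absolute log2 ratio of 1, with 0.5 and 1.5 as alternatives, beside other centring, scaling, probe and symbol rules.

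The members and lists were chosen with earlier results of these data known. Named were every member, list genes past 2-fold or at the extremes, the 5 genes nearest to DPP4 and to FAP, and 5 protein-coding neighbours on each side of DPP4. The averaging and calling code was run on simulated data with large known shifts and independent noise. That run checks the code and lends no support to the calls made here. Tools were Python 3.11.15 and pandas 2.3.3.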

Additional observations from a re-analysis of the deposited data

How the results depend on the processing

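Under 7 alternatives of probe rule, centring, scaling and symbols, DPP4 stayed between -3.98 and -3.56 on the depletion array and between 5.38 and 5.76 on the transfection array. FAP stayed between -1.89 and -1.51 after transfection, MME between 1.44 and 1.80 and ANPEP between 1.07 and 1.44 after depletion. The number of members past 2-fold on the depletion array was 3 as reported, 5 when centred on ribosomal protein genes (beside 8.65% of all genes), 6 at a threshold of 0.5 and 1 at a threshold of 1.5. At 0.5 the background was 22.6% of genes, and at 1.5 it was 1.42%. The median of the other members was 0.996 after depletion with the ribosomal centring, beside 0.37 over all genes. The median of the other members on the transfection array was -0.03 with the median of probes. DPP9 was at 0.56 after depletion with its probe of largest absolute ratio.

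No paired analysis was possible because each group has 1 array. No array was left out for the same reason. Channel intensities were not analysed here, so signal over background is not set beside any ratio.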

Other observations

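Other enzymes of the cell surface, which act on nucleotides, phosphates or membrane proteins, were listed for comparison with the peptidases. After CD26 depletion 2 of 11 measured were at least 2-fold higher, beside 3.31% of all genes. They were CD38 (log2 ratio 2.003), the NAD glycohydrolase, and NT5E (1.15), the ectonucleotidase CD73 that makes adenosine. The list median was -0.17, and the lysophospholipase D gene ENPP2 was the lowest (-0.74). After CD26 transfection 1 of 8 was, the sheddase gene ADAM10 (1.19), beside 4.09% of all genes, and NT5E was at -0.26. CD38 had no value there, so it belonged to the genes measured after depletion alone, of which 13.2% were past 2-fold. Each of these values came from 1 probe on 1 array.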
